A study of Rattus norvegicus with 6 samples.

Results

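The 54 genes described here belong to the rat major histocompatibility complex (MHC), called RT1, and to the machinery that loads its molecules with peptides and presents them. They were chosen by name and not by their values. Every gene whose symbol begins with RT1 was taken, together with 15 genes of antigen processing and presentation, out of 18166 genes that the array's gene table names alone on a row. Of these, 39 belong to class I, 29 of them RT1 genes and 10 pathway genes. A further 13 belong to class II, of which 10 are RT1 genes and 3 are pathway genes, and *Cd80* and *Cd86* encode costimulatory ligands. All 39 RT1 genes lie on chromosome 20 in RefSeq, and so do 5 of the pathway genes. Male Sprague Dawley pups were studied at weaning, at 3 weeks of age. Their dams ate a high-fat diet (HFD) from before mating, and the dams of 1 group were also given sitagliptin, an inhibitor of dipeptidyl peptidase 4, through pregnancy and lactation. The groups are called HFD-sitagliptin and HFD, and each had 3 pups with 1 Affymetrix rat gene array of the intestine per pup. The pups were exposed only through their dams, and both groups share the maternal HFD, so no normal-diet group enters the comparison. The question was whether maternal sitagliptin on top of the HFD went with a different level of these genes in the pups' intestine.

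Class I molecules sit on nearly all nucleated cells and show peptides from inside the cell to CD8 T cells. The immunoproteasome cuts proteins into such peptides, the TAP transporter carries them into the endoplasmic reticulum, tapasin helps to load them, and beta-2 microglobulin is the light chain of every class I molecule. Class II molecules are made by dendritic cells, macrophages and B cells, and also by small intestinal epithelium, and they show peptides from outside the cell to CD4 T cells. They are assembled with the invariant chain Cd74, and their genes are switched on together by the transactivator Ciita. In gut epithelium and in immune cells, interferon gamma raises both classes.

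The values are normalized signals on a log2 scale, and fold changes are HFD-sitagliptin minus HFD on that scale, from limma fitted to all 18166 genes. The study's own threshold was used to count genes, a change of 1.5-fold or more together with p under 0.05 before adjustment. At this threshold 2.01% of all genes were called, 0.705% as higher and 1.3% as lower. No gene had a limma adjusted p under 0.05, the lowest over all genes being 0.718, while 1040 genes (5.72%) had an unadjusted p under 0.05, 4 of them members. The methods' t-test also gave 0 genes at an adjusted p under 0.05, and with its p 0 class I and 0 class II members passed the threshold. In limma, 2 of the 54 members were higher, 1 was lower and 51 were not past the threshold. A gene was called above background when its mean was above 4.44, the 95th percentile of 1185 olfactory receptor genes, which are hardly used in the gut. That held for 40 members, and the other 14 were all class I RT1 genes. The labels do not name the gut region, and some regional marker genes differed widely between arrays. *Car1*, of colonic epithelium, was at 12.41 in HFD-sitagliptin replicate 1, the other arrays giving at most 4.04, and *Fabp6*, of the ileum, was high in both replicate 2 arrays, at 13.16 and 12.62. Of the 8 colonic markers measured, *Cldn8* (9.24), *Hoxa13* (6.53) and *Slc26a3* (10.77) were also highest in HFD-sitagliptin replicate 1. The other arrays gave at most 5.12, 3.70 and 10.30 for them. *Aqp8* was highest in HFD-sitagliptin replicate 3, at 7.48 against 3.97 in replicate 1. *Car4* was highest in HFD replicate 1, at 9.57 against 9.27 in HFD-sitagliptin replicate 1, and *Hoxd13* and *Hoxb13* were not above background in any array. Across genes, r was 0.926 to 0.94 between HFD-sitagliptin replicate 1 and the rest, and 0.968 to 0.985 within the rest. Over 9 epithelial markers, all of them above background, the mean level was between 9.58 and 9.84 in each of the 6 arrays. Single markers moved in opposite ways in HFD-sitagliptin replicate 1. *Vil1* (9.43), *Krt20* (10.37) and *Cdh1* (9.48) were lowest there, with at least 11.01, 11.26 and 9.58 elsewhere. *Krt8*, *Krt18*, *Krt19*, *Cdx1* and *Cdx2* were highest there.

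The promoters of the class II genes that moved most are shown first, since class II promoters in general have a known arrangement of control elements. The X box binds the RFX complex and CREB, the Y box binds NF-Y, and Ciita docks on these factors without touching DNA. Each stretch runs from 250 bases before to 50 bases after the gene's start in RefSeq, on build GRCr8. Capitals mark CCAAT or its complement ATTGG (Y box), an X box core (GCAAC, any base, then GATG) and TGACGTCA (cyclic AMP response element).
*RT1-Da*, chr20:4515165-4515464, plus strand: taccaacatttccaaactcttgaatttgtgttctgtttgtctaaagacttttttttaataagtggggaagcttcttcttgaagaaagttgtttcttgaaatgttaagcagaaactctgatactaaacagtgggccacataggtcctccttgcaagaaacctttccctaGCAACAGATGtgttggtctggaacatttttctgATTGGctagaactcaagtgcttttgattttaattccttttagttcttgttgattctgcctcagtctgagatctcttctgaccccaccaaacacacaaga
*RT1-Db1*, chr20:4560113-4560412, minus strand: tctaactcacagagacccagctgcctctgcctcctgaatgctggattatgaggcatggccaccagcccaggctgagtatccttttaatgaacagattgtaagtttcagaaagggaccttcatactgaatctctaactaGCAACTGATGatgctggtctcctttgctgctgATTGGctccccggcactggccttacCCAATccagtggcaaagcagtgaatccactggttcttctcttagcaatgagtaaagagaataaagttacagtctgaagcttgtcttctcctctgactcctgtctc
*RT1-Ba*, chr20:4576807-4577106, plus strand: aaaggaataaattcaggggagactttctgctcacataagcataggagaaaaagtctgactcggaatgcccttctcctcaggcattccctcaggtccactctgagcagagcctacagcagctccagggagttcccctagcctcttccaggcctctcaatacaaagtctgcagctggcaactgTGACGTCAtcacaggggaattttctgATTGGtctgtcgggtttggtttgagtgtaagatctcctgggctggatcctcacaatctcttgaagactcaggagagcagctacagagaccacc
*RT1-Bb*, chr20:4604069-4604368, minus strand: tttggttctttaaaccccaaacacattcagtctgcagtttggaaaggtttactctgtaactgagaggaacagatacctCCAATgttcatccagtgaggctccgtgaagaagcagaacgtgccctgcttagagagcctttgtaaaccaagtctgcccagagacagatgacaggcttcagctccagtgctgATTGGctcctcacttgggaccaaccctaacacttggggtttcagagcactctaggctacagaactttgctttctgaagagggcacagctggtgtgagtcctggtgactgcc

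All 9 class II RT1 promoters in the table held CCAAT on 1 strand or the other, against 37.5% of 33469 promoters of the same length. The class I RT1 promoters held it in 18 of 27 cases and the class I pathway promoters in 3 of 9. In *RT1-Da* the X box core began 82 bases before the start and the Y box 49 bases before it. In *RT1-Db1* they began 112 and 80 bases before the start, with a second Y box at 55. The core was present in 4 class II RT1 promoters, those of *RT1-Da*, *RT1-Db1*, *RT1-Db2* and *RT1-DOb*, and in 0.1% of all promoters. *RT1-Ba* held the cyclic AMP response element upstream of its Y box, and this motif was in 1.8% of all promoters. It held no X box core, and of the marked motifs *RT1-Bb* held only the Y box. The X box core was searched after the sequences had been read. *RT1-DMb* and *Ciita* had no sequence in the table.

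The class II genes of the D and B pairs, which form the peptide-presenting molecules, had the largest positive changes of their class, and 1 of them passed the threshold. *RT1-Db1*, the beta chain gene of RT1-D, had log2 values of 9.33, 9.40 and 8.91 in HFD-sitagliptin replicates 1, 2 and 3 and of 8.06, 8.88 and 8.62 in HFD replicates 1, 2 and 3. Its groups did not overlap, and its change of 0.69 (standard error 0.25, unadjusted p = 0.0295, limma adjusted p = 0.718) made it the class II member past the threshold. Among all genes, 5.97% had HFD-sitagliptin arrays that were all higher than the HFD arrays. *RT1-Da*, the partner alpha chain, lay at 10.74, 11.40 and 10.62 in the HFD-sitagliptin arrays and at 9.32, 11.16 and 10.12 in the HFD arrays. Here the groups overlapped, because HFD replicate 2 was above HFD-sitagliptin replicates 1 and 3. The change was 0.72 (standard error 0.47), with a 95% interval of -0.42 to 1.86.

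The chains of RT1-B, the second class II molecule, varied in the same arrays. *RT1-Bb*, its beta chain, had values of 6.72, 7.31 and 6.82 with maternal sitagliptin and of 5.30, 6.84 and 6.20 without it, a change of 0.84 (standard error 0.39). *RT1-Ba*, the alpha chain, lay at 7.54, 8.69 and 7.99 in HFD-sitagliptin pups and at 6.54, 8.64 and 7.23 in HFD pups, a change of 0.60 (standard error 0.56). Both overlapped between groups, and in both HFD replicate 1 was the lowest array and HFD replicate 2 the second highest. Neither passed the threshold with all arrays and no block.

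**Figure D1:**
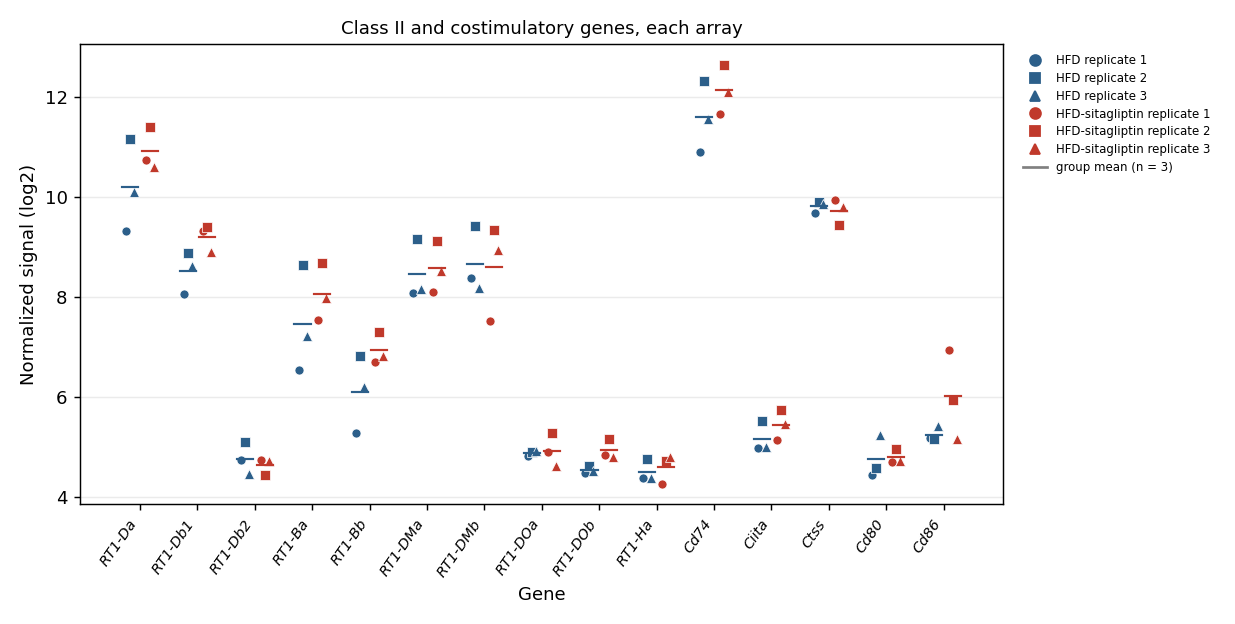
Normalized log2 signal (y axis) of the class II and costimulatory genes (x axis) in each array. Blue marks HFD and red HFD-sitagliptin, the marker shape gives the replicate number, and short lines are group means (n = 3). In RT1-Da, RT1-Ba, RT1-Bb, RT1-Db1 and Cd74, HFD replicate 1 was the lowest array and HFD-sitagliptin replicate 2 the highest.

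When arrays with the same replicate number were set side by side, these 4 genes were higher with maternal sitagliptin in each of the 3 pairs. The differences in pairs 1, 2 and 3 were 1.42, 0.24 and 0.50 for *RT1-Da*, 1.27, 0.52 and 0.28 for *RT1-Db1*, 1.42, 0.48 and 0.62 for *RT1-Bb*, and 1.0, 0.05 and 0.76 for *RT1-Ba*. Pair 1 thus gave the widest gap in each of them and pair 2 of *RT1-Ba* almost none. With the replicate number as a block, the count of class II members past the threshold rose from 1 to 4 of 13, all higher, where 2.62% of all genes were called and 0.892% were called higher. The lowest adjusted p of a class II member in that fit was 0.65. The labels do not say what the replicate number stands for. It was used as a block because same-numbered arrays deviated together in these same values, so the block is not separate support. Over the class, 7 of 13 members were higher in all 3 pairs, and so were 15.3% of all genes.

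These calls depended on single arrays. Leaving out an array took *RT1-Db1* below the threshold when it was replicate 1 (0.63) or 2 (0.60) of the HFD-sitagliptin group or replicate 1 (0.46) or 3 (0.74) of the HFD group. Without HFD replicate 2, which was high in class II genes, *RT1-Da*, *RT1-Ba*, *RT1-Bb* and *RT1-Db1* had changes of 1.2, 1.19, 1.2 and 0.87 and all 4 passed. Without HFD replicate 1 the changes of *RT1-Da*, *RT1-Ba* and *RT1-Bb* were 0.28, 0.14 and 0.43.

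The other class II RT1 genes had small or uneven differences. *RT1-DOb*, the beta chain of the DO molecule that restrains peptide exchange, had values of 4.85, 5.16 and 4.82 in HFD-sitagliptin pups and of 4.48, 4.63 and 4.53 in HFD pups. Its groups did not overlap and its unadjusted p was 0.0269 in limma, but its change of 0.40 (standard error 0.14) was under the fold threshold. *RT1-DOa*, the DO alpha chain, lay at 4.90, 5.29 and 4.62 against 4.82, 4.90 and 4.93 and did not follow it, with a change of 0.05. The DM molecule, which exchanges the peptide in the class II groove, is encoded by *RT1-DMa* and *RT1-DMb*. *RT1-DMa* had values of 8.11, 9.12 and 8.53 in HFD-sitagliptin arrays and of 8.09, 9.18 and 8.17 in HFD arrays, a change of 0.11. *RT1-DMb* lay at 7.53, 9.34 and 8.94 and at 8.39, 9.43 and 8.19, a change of -0.07. Both were high in the replicate 2 arrays of both groups, and *RT1-DMb* was lowest in HFD-sitagliptin replicate 1. *RT1-Db2*, a further D beta gene, ran from 4.45 to 4.75 in HFD-sitagliptin pups (4.75, 4.45 and 4.73) and from 4.46 to 5.10 in HFD pups (4.75, 5.10 and 4.46), a change of -0.13. *RT1-Ha*, an alpha chain gene related to human DP, had values of 4.28, 4.73 and 4.81 against 4.39, 4.76 and 4.39, a change of 0.09.

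Of the class II pathway genes, the invariant chain and the transactivator gave the same order of arrays as *RT1-Ba* and *RT1-Bb*. *Cd74* had log2 values of 11.67, 12.64 and 12.11 in HFD-sitagliptin replicates 1 to 3 and of 10.91, 12.33 and 11.56 in HFD replicates 1 to 3. The groups overlapped and the change was 0.54 (standard error 0.41, limma adjusted p = 0.728), and the difference was positive in all 3 pairs, at 0.76, 0.31 and 0.55. Without HFD replicate 1 the change was 0.19, and without HFD replicate 2 it was 0.91, neither past the threshold. *Ciita* lay at 5.15, 5.75 and 5.46 against 4.98, 5.52 and 5.01, a change of 0.28 (standard error 0.22), and was likewise higher in each pair. *Ctss*, which encodes cathepsin S, the protease that trims the invariant chain, differed from both. Its values were 9.95, 9.45 and 9.80 in HFD-sitagliptin pups and 9.69, 9.91 and 9.87 in HFD pups, a change of -0.09 with a 95% interval of -0.49 to 0.31.

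The median change of the 13 class II members was 0.28, and 10 of 13 changes were above 0, against a median of 0.01 and 51.9% of all genes. HFD replicate 1 was the lowest array for 8 of 13 members, and 18.7% of all genes were lowest there. HFD-sitagliptin replicate 2 was the highest for 8 of 13, against 15.7% of all genes. The median deviation from the gene mean was 0.54 and 0.31 in the replicate 2 arrays of the HFD-sitagliptin and HFD groups, which were high in *Fabp6*. It was -0.33 in HFD replicate 1, -0.30 in HFD replicate 3 and 0.07 in HFD-sitagliptin replicate 3. In HFD-sitagliptin replicate 1, the array high in *Car1*, it was -0.01, and without that array the class II median was 0.44. Without HFD replicate 1 it was 0.14. The ileal genes *Fabp6*, *Slc10a2*, *Slc51a* and *Enpp7* were highest in replicate 2 of each group. *Slc51b* was so in the HFD-sitagliptin group only, and *Nr1h4* was highest in replicate 1 of each group, at 8.53 and 8.14. Over 6 measured ileal markers, all above background, the mean level was 5.92 to 10.1 in HFD-sitagliptin arrays and 8.05 to 9.79 in HFD arrays. It was highest in replicate 2 of each group, and 1 of the 6, *Enpp7*, was lower past the threshold. The lowest mean, 5.92, was that of HFD-sitagliptin replicate 1, where the class II deviation was -0.01. The part of gut region in the class II differences was not tested.

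Class II genes are also a mark of certain immune cells, so markers of those cells were read beside them. All 16 measured macrophage and dendritic cell markers were above background, with mean levels of 6.20 to 6.51 in HFD-sitagliptin arrays and 6.05 to 6.15 in HFD arrays. Of the 16, 2 were higher past the threshold, *Adgre1* and *Itgam* (median change 0.30), where 0.705% of all genes were called higher. With 1 array left out, *Adgre1* passed in 3 of 6 fits and *Itgam* in 4 of 6. Without HFD-sitagliptin replicate 1, its highest array, *Adgre1* had a change of 0.42. Only *Lyz2* (-0.87) and *Cd163* (-0.09) had changes below 0. The median deviation of these markers was 0.30, 0.17 and 0.01 in HFD-sitagliptin replicates 1 to 3. In HFD replicates 1 to 3 it was -0.25, -0.10 and -0.06. Within HFD-sitagliptin replicate 1 the list was split. *Flt3* (4.92), *Xcr1* (5.74), *Clec9a* (4.13) and *Lyz2* (9.79) were lowest in that array. *Csf1r*, *Mrc1*, *Adgre1*, *Aif1*, *C1qa*, *C1qb* and *C1qc* were highest in it. Of 7 measured B cell markers none was past the threshold, and 4 were above background. The mean level was 4.24 to 4.51 in HFD-sitagliptin arrays and 4.18 to 4.26 in HFD arrays. Those above background were *Cd79a* (mean 5.586), *Cd79b* (5.051), *Blk* (4.685) and *Cd22* (4.446), and *Ms4a1*, *Fcrla* and *Cr2* were not. In whole tissue, fewer cells of a type and less RNA per cell cannot be told apart, and the part of cell composition in these values was not tested.

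**Figure D2:**
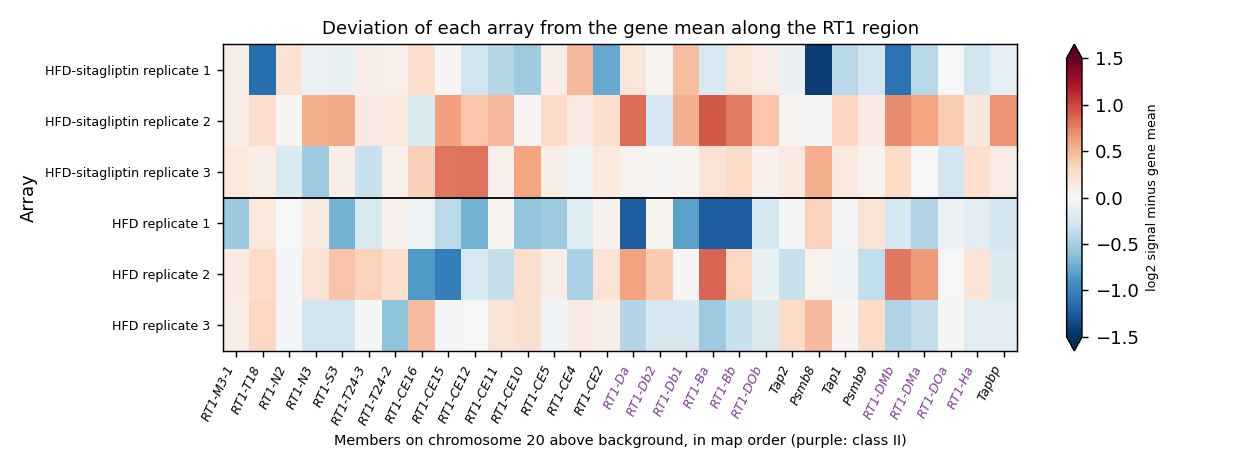
Log2 signal of each array minus the gene's mean over the 6 arrays (colour) for the 30 members on chromosome 20 that were above background, in map order (x axis, class II names in purple), with 1 row per array. RT1-Da, RT1-Db1, RT1-Ba and RT1-Bb are low in HFD replicate 1 and high in HFD-sitagliptin replicate 2, while Psmb8, RT1-T18 and RT1-DMb are lowest in HFD-sitagliptin replicate 1.

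Of the 10 class I pathway genes 1 was lower and 9 were not past the threshold, and their promoters often held an interferon-stimulated response element. This element was searched as GAAA, any 2 bases, then GAAA, on both strands, and was found in 7 of 9 class I pathway promoters, in 3 of 27 class I RT1 promoters and in none of the 9 class II RT1 promoters, against 3.9% of all promoters. The promoters of *Ctss* and *Cd80* also held it. The matches are shown to set the elements side by side, with RefSeq positions on GRCr8. Capitals mark every match within the stretch shown, including 2 overlapping matches in *Tapbp*, and *Psmb10* has a second match outside its stretch.
*B2m*, chr3:129549165-129549204, plus strand: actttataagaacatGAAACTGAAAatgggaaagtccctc
*Psmb8*, chr20:4657011-4657050, minus strand: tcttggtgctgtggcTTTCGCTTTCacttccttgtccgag
*Psmb10*, chr19:50743341-50743380, minus strand: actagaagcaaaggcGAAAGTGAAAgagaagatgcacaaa
*Psme2*, chr15:33052780-33052819, minus strand: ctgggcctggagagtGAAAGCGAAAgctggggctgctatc
*Tap1*, chr20:4668640-4668679, minus strand: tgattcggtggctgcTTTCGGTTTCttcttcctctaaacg
*Tap2*, chr20:4652313-4652352, minus strand: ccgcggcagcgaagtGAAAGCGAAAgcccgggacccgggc
*Tapbp*, chr20:4967879-4967918, minus strand: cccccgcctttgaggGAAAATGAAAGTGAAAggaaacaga

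*Psme1* and *Psme2*, which encode the alpha and beta subunits of the PA28 activator that opens the proteasome for peptide production, were both lower in every HFD-sitagliptin array than in any HFD array. *Psme1* had values of 6.65, 7.13 and 7.62 in HFD-sitagliptin pups and of 8.48, 7.78 and 7.75 in HFD pups. It fell by 0.87 on the log2 scale (standard error 0.31, unadjusted p = 0.0275, limma adjusted p = 0.718) and was the 1 member lower past the threshold. *Psme2* lay at 9.12, 9.73 and 9.48 and at 10.73, 9.85 and 9.76, a change of -0.67 (standard error 0.30, limma unadjusted p = 0.0646), and was not past it. That change was -0.36 without HFD replicate 1, and -0.84 and past the threshold without HFD replicate 3. HFD replicate 1 was the highest array for both, while it was the lowest for 8 of the 13 class II members. Groups that do not overlap, with HFD-sitagliptin lower, were found in 5.54% of all genes. With the replicate number as a block *Psme1* was not past the threshold (unadjusted p = 0.0568 in limma), where 1.73% of all genes were called lower. The same held when replicate 1 (-0.63) or 2 (-0.87) of the HFD-sitagliptin group or replicate 1 of the HFD group (-0.63) was left out.

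The 3 immunoproteasome subunits, which replace the standard catalytic ones under interferon gamma, were not past the threshold. *Psmb8* had values of 7.64, 9.03 and 9.59 with maternal sitagliptin and of 9.40, 9.10 and 9.53 without it. Its change of -0.59 came with a low value in HFD-sitagliptin replicate 1, and without that array it was -0.03. *Psmb9* had values of 7.52, 7.94 and 7.87 against 8.01, 7.45 and 8.09, a change of -0.07 (95% interval -0.59 to 0.44). *Psmb10* had values of 7.84, 8.21 and 8.40 against 8.32, 7.94 and 8.36, a change of -0.06 (95% interval -0.53 to 0.41). *Psmb8* and *Psmb9* lie among the class II genes on chromosome 20, next to *Tap2* and *Tap1*, and their array order was not that of their class II neighbours.

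The genes of peptide transport and loading were near equal or slightly higher. *Tap1* lay at 5.97, 6.70 and 6.52 in HFD-sitagliptin pups and at 6.36, 6.32 and 6.39 in HFD pups, and *Tap2* at 6.94, 7.09 and 7.18 and at 7.02, 6.71 and 7.33. Their changes were 0.04 and 0.05, with 95% intervals of -0.45 to 0.52 and -0.39 to 0.49. *Tapbp*, the tapasin gene, had values of 8.10, 8.91 and 8.34 against 7.95, 8.03 and 8.07. Its lowest array was HFD replicate 1 and its highest HFD-sitagliptin replicate 2, as in *RT1-Da*, *RT1-Db1*, *RT1-Ba* and *RT1-Bb*. All HFD-sitagliptin arrays were higher than the HFD arrays, by 0.43 on average (standard error 0.22, limma unadjusted p = 0.0919), and the gene was not past the threshold with all arrays. Without HFD-sitagliptin replicate 1 it had a change of 0.61 and passed. *B2m*, the light chain gene, had values of 12.05, 12.51 and 12.36 against 12.57, 12.53 and 12.46, a change of -0.21 (standard error 0.15). HFD-sitagliptin replicate 1 was its lowest array. *Nlrc5*, the transactivator of class I genes, lay at 4.75, 4.85 and 4.78 against 4.67, 4.56 and 4.78, a change of 0.12.

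**Figure D3:**
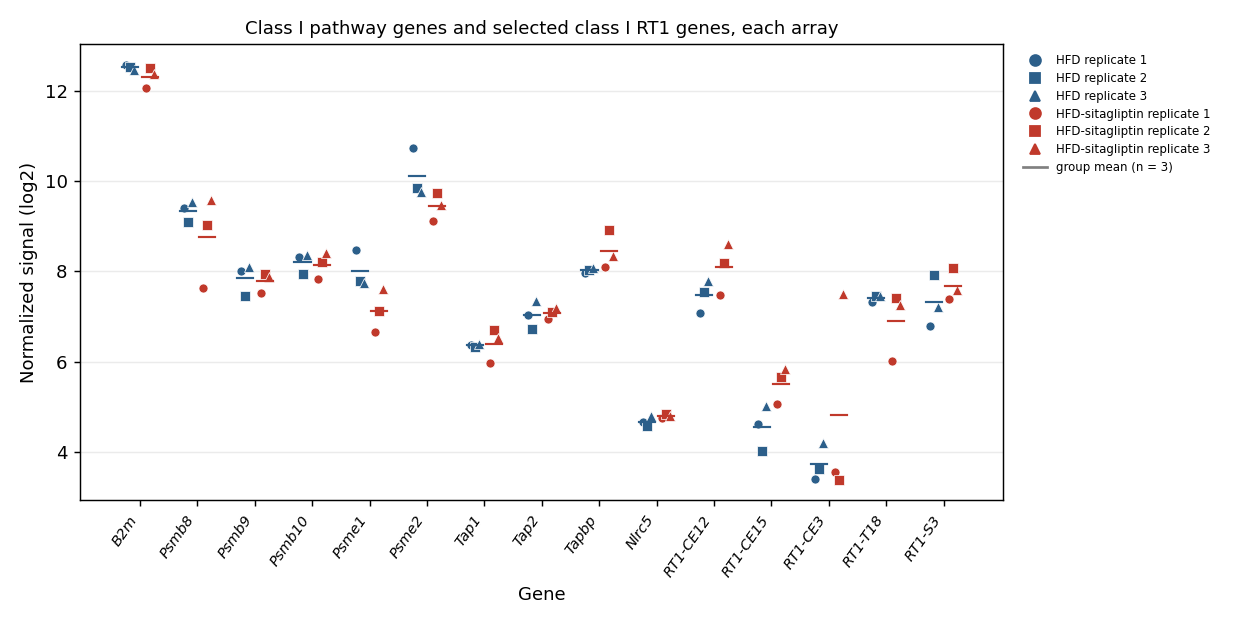
Normalized log2 signal (y axis) of the 10 class I pathway genes and 5 class I RT1 genes (x axis) in each array, with colours and markers as for the class II genes and group means as short lines (n = 3). Psme1 and Psme2 have no overlap between groups, Psmb8 and RT1-T18 are low in HFD-sitagliptin replicate 1, and RT1-CE3 is high in HFD-sitagliptin replicate 3 alone.

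Over the 10 class I pathway genes the median change was -0.07, with 1 lower and 9 not past the threshold. HFD-sitagliptin replicate 1 was the lowest array for 6 of 10, against 22.1% of all genes, and its median deviation from the gene mean was -0.35. Brush border genes were low and smooth muscle genes high in the same array. Over 12 measured brush border genes, all above background, the mean level was 6.0 there, 9.66 and 10.95 in the other HFD-sitagliptin arrays and 10.5 to 11.16 in the HFD arrays, and *Lct* and *Slc2a2* were lower past the threshold. Over 7 measured smooth muscle genes, all above background, the mean level was 10.19 there and 8.47 to 8.97 in the other arrays. Without that array the median of the class I pathway genes was 0.08, and the part of tissue composition in their values was not tested.

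The class I RT1 genes are those of the heavy chains and their relatives, and 2 of the 29, *RT1-M10-1* and *RT1-T24-2*, are annotated as long non-coding RNA in RefSeq. Their number differs between RT1 haplotypes, and many are close copies of each other, so signal may be shared between them on an array. Among 29 genes 1 was higher past the threshold, none was lower in limma and 28 were not past it. Their changes ran from -0.57 to 1.08, with a median of 0.09. Over the 15 above background the median was 0.21, and 11 of 15 changes were above 0. The classical genes of the RT1-A region share a single row of the array table with each other, so they are not described, nor are 2 further rows with several RT1-CE symbols.

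The gene past the threshold was *RT1-CE15*, of the RT1-C/E region. It had values of 5.05, 5.65 and 5.84 in HFD-sitagliptin pups and of 4.62, 4.01 and 5.02 in HFD pups. The groups were apart by a small margin, between HFD-sitagliptin replicate 1 and HFD replicate 3, and the change was 0.96 (standard error 0.31, unadjusted p = 0.0201, limma adjusted p = 0.718). The call was lost when replicate 2 (0.90) or 3 (0.80) of the HFD-sitagliptin group or replicate 2 of the HFD group (0.69) was left out. Of the 10 RT1-CE genes, 9 had changes above 0, against 51.9% of all genes, with a median of 0.30. Close copies may share signal, so these are not separate observations. Among the 9 are *RT1-CE10* (0.06) and *RT1-CE11* (0.09), and *RT1-CE3* and *RT1-CE13*, whose means were not above background. With the replicate number as a block *RT1-CE12* (0.62) was higher past the threshold as well, where 0.892% of all genes were called higher. Its values were 7.48, 8.19 and 8.60 against 7.07, 7.54 and 7.79, which overlap between groups, and it was named after they were seen.

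*RT1-CE3* had the widest range of all members, and it rests on 1 pup. Its value was 7.49 in HFD-sitagliptin replicate 3 but 3.56 and 3.38 in replicates 1 and 2 of that group. In HFD pups it lay at 3.39, 3.61 and 4.19, so only 1 of the 6 arrays was above background. The change over all arrays was 1.08 (standard error 1.08), and without that array it was -0.26. Its neighbours in map order, *RT1-CE2* and *RT1-CE4*, ran from 4.47 to 5.47 and from 5.65 to 6.62 over the arrays and did not stand out in that pup.

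Wide ranges of 1.96 and 2.17 were also seen in *RT1-T24-1* and *RT1-M6-1*, whose means were not above background. *RT1-T24-1* had values of 1.96, 2.48 and 2.44 in HFD-sitagliptin pups and of 3.92, 2.21 and 2.47 in HFD pups. *RT1-M6-1* had values of 2.83, 2.94 and 2.60 against 1.53, 3.70 and 2.56. In both, HFD replicate 1 was an extreme array. *RT1-M4* lay at 4.12, 4.33 and 4.09 against 3.47, 4.06 and 4.03, without overlap and with a change of 0.33, at a mean not above background. Of the non-classical genes above background, 3 are given for their array order or for an array apart from the rest, chosen after their values were seen. *RT1-S3*, the rat counterpart of mouse H2-T23, had values of 7.39, 8.07 and 7.59 in HFD-sitagliptin pups and of 6.79, 7.93 and 7.21 in HFD pups. Its arrays stood in the same order as those of *RT1-Ba*, *RT1-Bb* and *Cd74*, and its pairs differed by 0.60, 0.14 and 0.38. The change of 0.37 (standard error 0.32) was not past the threshold, was 0.11 without HFD replicate 1, and passed at 0.68 without HFD replicate 2. *RT1-T18* was at 6.02 in HFD-sitagliptin replicate 1 and between 7.25 and 7.46 in the others. *RT1-M3-1*, related to mouse H2-M3, which presents formylated peptides, was at 4.68 in HFD replicate 1 and between 5.34 and 5.40 elsewhere.

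**Figure D4:**
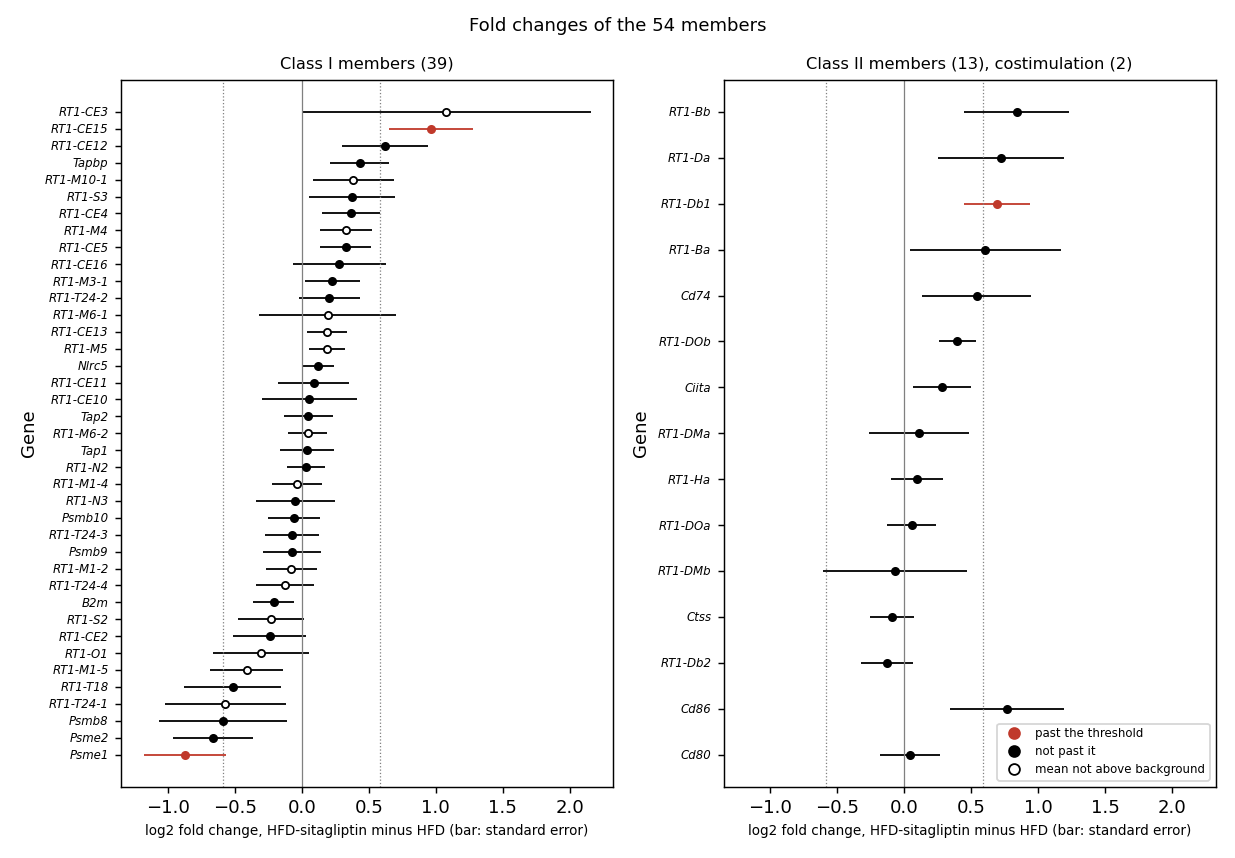
Log2 fold change, HFD-sitagliptin minus HFD (x axis), of the 39 class I members (left) and the 13 class II and 2 costimulatory members (right), each a point with its standard error (n = 3 per group). Dotted lines mark a fold change of 1.5, red marks RT1-CE15, Psme1 and RT1-Db1, which passed the threshold, and open points are genes not above background.

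Costimulatory ligands give T cells the second signal that peptide and MHC alone do not. *Cd86* had values of 6.95, 5.95 and 5.17 with maternal sitagliptin and of 5.18, 5.17 and 5.42 without it. The high value was that of HFD-sitagliptin replicate 1, and the change of 0.77 (standard error 0.42) was not past the threshold and was 0.30 without that array. Without HFD-sitagliptin replicate 3 it was 1.19 and passed. *Cd80* had values of 4.71, 4.96 and 4.73 against 4.46, 4.58 and 5.24, a change of 0.04 (standard error 0.23).

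Other genes of these routes were read from lists of their own. Of 14 measured further class I pathway genes, among them the constitutive proteasome subunits, the endoplasmic reticulum chaperones and *Cd1d1*, none was past the threshold in limma (median change -0.04). Among 15 further class II pathway genes, 14 did not pass and 1 fell, *Ifi30*, a thiol reductase of the lysosome that opens disulfide bonds for class II presentation. *Ifi30* had values of 6.98, 7.78 and 8.14 in HFD-sitagliptin pups and of 8.69, 8.20 and 8.35 in HFD pups, a change of -0.78 (standard error 0.31, unadjusted p = 0.043, limma adjusted p = 0.718). Without HFD-sitagliptin replicate 1, its lowest array, the change was -0.45, and it passed in 1 of 6 fits with an array left out. *Nfyc*, a subunit of the NF-Y factor of the Y box, lay at 7.47, 7.67 and 7.64 against 8.46, 8.06 and 7.87, a change of -0.53 that is under the fold threshold. *Nfya* and *Rfx5*, of the same complex on class II promoters, had changes of 0.19 and -0.22.

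Of 18 measured genes of interferon gamma signalling 1 was lower and 17 were not past the threshold, with a median change of 0.09. The lower one was *Ifng*, the gene of the cytokine, with values of 3.66, 3.09 and 3.31 in HFD-sitagliptin pups and of 4.06, 4.16 and 3.81 in HFD pups. Its change was -0.65 (standard error 0.18), and no array was above the background level. Of 8 further costimulatory genes none was past the threshold in limma, and 3 were above background. T and NK cell markers had mean levels of 4.99 to 5.80 in HFD-sitagliptin arrays and 5.18 to 5.51 in HFD arrays, and none of 12 passed in limma.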

How the data were processed

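Total RNA of the intestine was hybridized to Affymetrix rat gene arrays, 1 per pup. The study drew 1 male pup per litter, but the labels tie no array to a litter, so p-values measure the spread between these arrays. The authors deposited normalized log2 signals for 36685 transcript clusters, normalized in GeneSpring with an algorithm that is not given in the sources used here. Array medians were 4.45 to 4.62 and values 0.58 to 13.55. Arrays have no read depth, and their number limits the precision.

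Of these clusters, 18511 carried 1 gene symbol in the platform annotation, 575 several and 17599 were not named. The row with the highest mean was kept for 291 genes with over 1 row. Gene IDs of all 54 members had the same symbol in RefSeq, and 49 had a promoter sequence there.

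Groups were compared with limma 3.58.1 in R 4.3.3 (two-sided, Benjamini-Hochberg over all genes), after tests on simulated data. Values in every array are given for non-RT1 members, class II RT1 genes, and class I RT1 genes past the threshold, without overlap or with the 3 largest ranges. Same-numbered arrays deviated together (r = 0.146, 0.284 and 0.148 across genes, against -0.24 to 0.02 for other pairs), so the number was used as a block in an alternative. Deviations were taken from each group's own mean, so positive values for same-numbered arrays force lower ones for the other pairs. The replicate numbers are in the labels, but the choice to pair by them comes from the values. Other alternatives changed the test, weights, normalization, moderation, filter, rows per gene, thresholds and arrays included. Members and lists were chosen with earlier results of these data known.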

Additional observations from a re-analysis of the deposited data

How the results depend on the processing

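The count of class I members past the threshold (2) was 0 by the methods' t-test and at a fold of at least 2, and 0 to 3 with 1 array left out. The class II count (1) was 0 in those same settings, 4 with the replicate block, 2 with array weights, 2 with no fold threshold, and 0 to 4 with 1 array left out. The count over all genes (365) was 158, 57 and 1040 by the t-test, at a fold of at least 2 and with no fold threshold, and 239 (without HFD replicate 1) to 880 (without HFD-sitagliptin replicate 3) with 1 array left out. The replicate block also lost *Psme1*.

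Some changes of genes not past the threshold took the other sign. With array weights these were *Cd80* (-0.091), *Tap2* (-0.028) and *RT1-DMb* (0.447). With quantile normalization they were *Cd80* (-0.014), *Ctss* (0.03), *Psmb10* (0.052), *Psmb9* (0.026), *RT1-DMb* (0.049) and *RT1-DOa* (-0.009), and with median centring *Tap1* (-0.001). With 1 array left out, the ranges were -0.11 to 0.28 for *Cd80*, -0.20 to 0.052 for *Ctss*, -0.19 to 0.10 for *Psmb10*, -0.28 to 0.053 for *Psmb9*, -0.11 to 0.25 for *Tap1*, -0.11 to 0.20 for *Tap2*, -0.16 to 0.46 for *RT1-DMa*, -0.44 to 0.47 for *RT1-DMb*, -0.12 to 0.21 for *RT1-DOa*, -0.28 to 0.037 for *RT1-Db2*, -0.006 to 0.26 for *RT1-Ha*, -0.26 to 1.79 for *RT1-CE3* and -0.34 to 0.74 for *RT1-M6-1*. The cause was not tested.

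The median change over all 39 class I members (0.04) and that over the 13 class II members (0.28) stayed above 0 in every alternative run, at 0.005 to 0.116 and 0.135 to 0.455. These runs reuse the same arrays, so they are not separate support. The median of all genes was 0.01 with all arrays. Without HFD replicate 1 it was 0.02, against 0.014 for class I. The median of the 10 class I pathway genes did not keep its sign: it was -0.07, and 0.08 when HFD-sitagliptin replicate 1 was left out. With 3 arrays per group an exact permutation test of a single gene cannot go below 0.1. For the 14 class I RT1 genes not above background, signal limits what can be measured.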
